A study of Mus musculus with 24 samples.

Results

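Skeletal muscle genes were followed across 24 arrays of mouse thyroid tissue and thyroid tumours. The genes encode parts of the contractile apparatus, its calcium handling and its energy supply, and were taken from a list of 39. For each, the probe set (the group of short probes that reads a transcript) with the highest mean over all arrays was used. A probe set named for that gene alone was found for 37 of the 39, and Mybpc1 and Mybpc2, which encode myosin-binding proteins, had none. The 37 stand among 12394 genes measured in the same way. By fibre type, 13 are best known from fast fibres, 7 from slow fibres and 17 are shared by both.

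RNA was hybridised to Affymetrix Mouse430A_2 arrays, and the deposited values are log2 intensities. The groups follow the tissue label: 6 pools of normal thyroid glands (normal), 4 papillary thyroid carcinomas (PTC, differentiated tumours), 5 anaplastic thyroid carcinomas (ATC, undifferentiated tumours) and 9 recurrent tumours (recurrent). The series title concerns anaplastic cancers that resist loss of BRAF, a kinase of the MAPK cascade, by way of Met, a receptor kinase, and Hgf, which activates it. The labels hold no genotype, strain, age, treatment or transgene for single samples. In the titles, 4 of the normal pools (pools 1 to 4) carry WT and 2 (pools 5 and 6) carry Cre. Titles begin with JK on 4 normal, 4 PTC, 2 ATC and 3 recurrent arrays, after a prefix on 1 of the pools, and consist of a bare number on 3 ATC and 6 recurrent arrays, so every PTC is a JK array and no normal pool has a bare number. The labels do not say whether arrays of a group came from separate animals, so a p-value here weighs only sample-to-sample spread, part of which may be technical.

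A skeletal muscle fibre contracts when calcium, released from the sarcoplasmic reticulum, binds troponin on the thin filament and lets myosin heads of the thick filament pull on actin. Fast and slow fibres build the same machine from different gene copies: slow fibres use the myosin heavy chain Myh7 and the troponins Tnnc1, Tnni1 and Tnnt1, while fast fibres use Myh2, Myh1 or Myh4 with Tnnc2, Tnni2 and Tnnt3. Follicular thyroid cells do not make these proteins, but the gland lies on the trachea beneath the strap muscles of the neck.

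Array medians over all probe sets lay between 7.38 and 7.58. Thyroglobulin (Tg), the defining product of follicular cells, was at 14.80 to 14.96 in normal pools and 13.11 to 14.24 in PTC. It ranged from 4.46 to 13.48 in ATC and from 4.61 to 14.18 in recurrent tumours, where arrays 4 and 1 stood at 14.18 and 11.31 and the other 7 at or below 5.86. Of 9 measured thyroid genes, limma called 5 lower and 1 higher in PTC, and 8 lower in both ATC and recurrent tumours, each against normal pools. Of all genes, 14.2%, 34.3% and 33.8% were called in these comparisons.

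The muscle genes were among the most variable on these arrays. A member ranged over a median of 7.78 log2 units between its lowest and highest array, against 1.90 over all genes. All 37 ranged over more than 4 log2 units, as did 14.4% of all genes. Acta1, the actin of the skeletal muscle thin filament, lay between 10.35 and 12.99 (median 11.24) in normal pools. Its level was 12.39, 12.41, 13.00 and 11.59 in PTC, and 13.90, 13.67, 13.48, 13.63 and 10.84 in ATC. In recurrent tumours it ran from 6.40 to 14.66 (median 13.43), so that both its lowest and its highest arrays were recurrent tumours. Ckm, the muscle creatine kinase that buffers ATP, ran from 6.37 to 14.36 in recurrent tumours and from 9.51 to 12.37 in normal pools.

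Most members followed the same order of arrays. For 31 of the 37 the highest array was recurrent tumour 4, and for 31 the lowest was recurrent tumour 2, 3 or 7. The mean deviation of the 37 genes from their own medians was 3.05 log2 units on recurrent array 4, 1.74 on array 5 and 1.37 on array 9. It was -3.71 on recurrent array 2, -3.37 on array 3 and -2.57 on array 7. Recurrent arrays 1, 6 and 8 lay between these extremes, at 0.51, 1.05 and -0.56. ATC array 5 was low as well, at -2.10, and the other 4 ATC arrays lay between 0.05 and 0.99. Normal pools covered -1.39 to 0.51 and PTC -0.66 to 0.32. In a piece of tissue, fewer muscle cells and less RNA per muscle cell cannot be told apart.

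The arrays with the low means also had the muscle genes low among all genes of the array. On recurrent arrays 2, 3 and 7, 36, 35 and 29 of the 37 members were at or below the array's median gene, against 8 to 16 on normal pools and 4 to 13 in PTC. On ATC array 5 the number was 22, and on the other ATC arrays 5 to 8. The comparisons with recurrent tumours are therefore also given without recurrent arrays 2, 3 and 7, as counts, list medians and the values of the genes described, in a paragraph of their own.

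**Figure D1:**
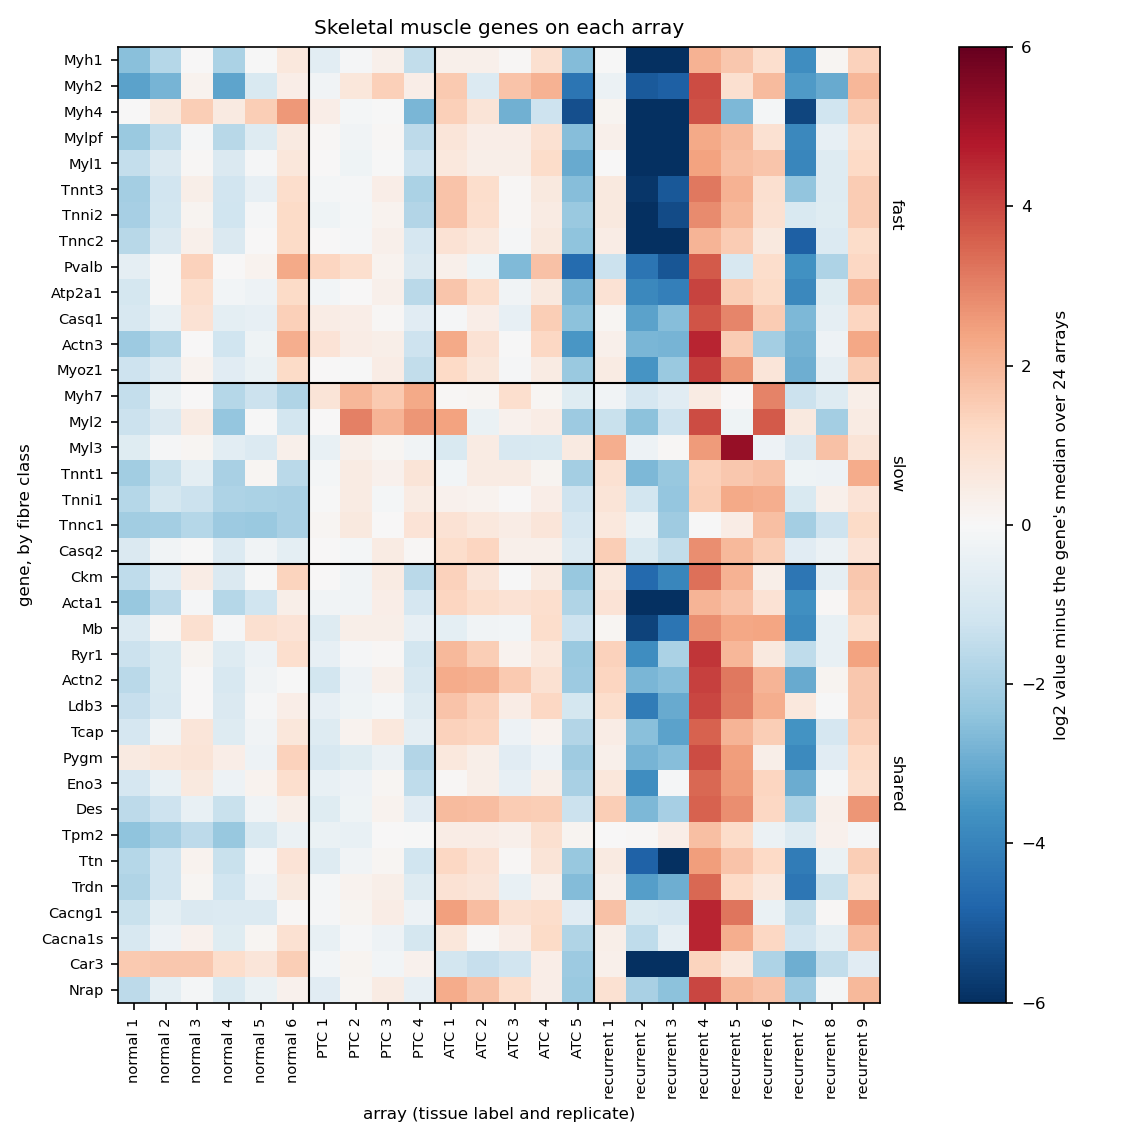
Log2 value of each of 37 skeletal muscle genes (rows, by fibre class) on each of 24 arrays (columns, by tissue label), minus the gene's median over all arrays. Colours stop at 6 log2 units on either side of the median. Recurrent arrays 2, 3 and 7 are blue for most genes and recurrent array 4 is red, while the slow genes are paler on the low arrays and blue in the normal pools.

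Spread within groups differed between groups and between fibre classes. The median SD of a member was 0.83 in normal pools, 0.59 in PTC, 1.35 in ATC and 2.58 in recurrent tumours, where the median over all genes was 0.18, 0.14, 0.27 and 0.52. Fast genes varied more than slow ones in every group: the median SD was 1.04 against 0.49 in normal pools, 0.85 against 0.37 in PTC, 1.64 against 0.78 in ATC and 3.21 against 1.57 in recurrent tumours. The slow genes also lay nearer background, where values are compressed. Their means in normal pools ran from 5.12 to 7.06, and those of the fast genes from 8.3 to 12.3. The part of level in the spread was not tested.

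The start regions of Myh4, Myh2 and Tnnc1 are shown because the comparisons below turn on these genes. Myh4 encodes the myosin heavy chain of type IIb fibres, the fastest of the mouse, Myh2 that of the more oxidative type IIa fibres, and Tnnc1 the calcium-binding troponin C of slow and cardiac muscle. The 250 bases before each start are given as in RefSeq for GRCm38.p6, on the + strand, at chr11:67237562-67237811 for Myh4, chr11:67170777-67171026 for Myh2 and chr14:31208062-31208311 for Tnnc1. Capitals mark matches to the E-box CANNTG (the core site of MyoD-family factors), to the MEF2 site, to the CArG box of serum response factor or to TATAAA.
Myh4: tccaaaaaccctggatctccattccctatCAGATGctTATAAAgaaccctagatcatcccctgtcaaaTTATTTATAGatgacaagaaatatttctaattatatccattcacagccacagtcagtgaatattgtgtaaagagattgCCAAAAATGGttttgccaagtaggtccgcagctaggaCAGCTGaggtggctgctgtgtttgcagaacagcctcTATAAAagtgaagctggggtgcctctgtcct
Myh2: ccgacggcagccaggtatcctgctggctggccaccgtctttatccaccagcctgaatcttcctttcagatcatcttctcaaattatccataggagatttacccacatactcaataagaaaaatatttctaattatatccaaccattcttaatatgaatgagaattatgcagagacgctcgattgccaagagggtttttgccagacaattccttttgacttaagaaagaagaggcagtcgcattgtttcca
Tnnc1: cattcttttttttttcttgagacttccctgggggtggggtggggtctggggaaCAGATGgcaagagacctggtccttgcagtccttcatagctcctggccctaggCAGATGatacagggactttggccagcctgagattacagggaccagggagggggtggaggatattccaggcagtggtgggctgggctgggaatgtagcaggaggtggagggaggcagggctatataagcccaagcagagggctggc
The first 3 of these motifs read the same on both strands, and TATAAA was searched on the strand of the gene. Myh4 held 2 E-boxes, 221 and 67 bases before the start, 1 MEF2 site at 182, 1 CArG box at 104, and TATAAA at 213 and 31. Tnnc1 held 2 E-boxes, at 197 and 145, and the Myh2 window held none of the 4 motifs. RefSeq windows matched 31 of the 39 genes, with 38 windows in all. An E-box was found in 84.2% of these and in 66.2% of 32851 windows of all genes, a MEF2 site in 13.2% and 2.92%, a CArG box in 13.2% and 1.47%, and TATAAA in 10.5% and 7.59%. These are matches of letters only.

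Each tumour group was compared with the normal pools to see which muscle genes differed. A gene was called where limma, fitted to all arrays with 4 group means, gave an adjusted p below 0.05 over 12394 genes. In PTC 3 of 37 members were called higher and 0 lower (limma, 5 members at an unadjusted p below 0.05), where 6.16% and 8.03% of all genes, together 14.2%, were called. In ATC 2 were called higher and 0 lower (5 unadjusted), where the background was 15.1% and 19.1%, together 34.3%. In recurrent tumours 3 were called higher and 1 lower (9 unadjusted), against 14.5% and 19.3% of all genes, together 33.8%. Those shares of the members lie near or below the background. The called genes were Tnnc1 and Tpm2 in all 3 comparisons, Myh7 in PTC, and Tnni1 and Car3 in recurrent tumours. The 3 comparisons share the same normal pools.

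Among the slow genes, 2 of 7 were called higher in PTC, 1 in ATC and 2 in recurrent tumours, and 0 were called lower by limma. Of all genes, 6.16%, 15.1% and 14.5% were called higher in these comparisons. All 7 slow genes had a higher mean in PTC and in recurrent tumours than in normal pools, and 6 of 7 did in ATC. Car3, which slow fibres also make, was counted as shared, and its mean was lower than normal in every tumour group. The median difference from normal over the 7 was 1.83 in PTC, 1.03 in ATC and 1.51 in recurrent tumours, with medians of -0.01, -0.08 and -0.03 over all genes. In the 6 comparisons between groups, 4.32% to 34.3% of all genes were called. None of the 13 fast genes was called in any of them (limma, 1 at an unadjusted p below 0.05, Myh4 in recurrent tumours against normal). Their median differences were 0.10, 0.30 and -0.21, the last turning to 1.58 without recurrent arrays 2, 3 and 7. No test of the difference between the slow and fast lists was made.

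Tnnc1 lay between 5.53 and 6.06 (median 5.73) in normal pools. Its values were 7.90, 8.35, 7.79 and 8.57 in PTC, 8.64, 8.39, 8.21, 8.52 and 6.76 in ATC, and 5.65 to 9.57 (median 7.75) in recurrent tumours. All PTC and ATC arrays were above all normal pools, and recurrent arrays 3 and 7, at 5.65 and 5.75, were within the range of the pools. The difference from normal was 2.41 ± 0.58 (SE, limma adjusted p = 0.00666) in PTC, 2.36 ± 0.55 (limma adjusted p = 0.00183) in ATC and 1.84 ± 0.48 (limma adjusted p = 0.00465) in recurrent tumours. With the 3 kinds of title as a block the recurrent difference was 1.70 and was not called (limma adjusted p = 0.0601).

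Myh7, the slow myosin heavy chain, was between 4.42 and 6.22 (median 4.86) in normal pools. It stood at 7.0, 8.23, 7.81 and 8.50 in PTC and at 6.28, 6.35, 7.23, 6.34 and 5.48 in ATC. Recurrent tumours ran from 4.94 to 9.19 (median 6.02), with array 6 the highest. PTC thus lay above every normal pool, while ATC and recurrent tumours overlapped the pools. PTC rose by 2.76 ± 0.59 (SE, limma adjusted p = 0.00256), and the differences in ATC (1.22, adjusted p = 0.095) and recurrent tumours (1.08, adjusted p = 0.0876) did not pass the limma test.

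Tnni1, the inhibitory troponin of slow fibres, lay between 5.67 and 6.56 (median 5.84) in normal pools and at 7.59, 8.10, 7.53 and 8.10 in PTC. ATC arrays were at 7.88, 7.83, 7.66, 8.01 and 6.39, and recurrent tumours ran from 5.28 to 9.90 (median 8.40). PTC lay above all pools, and ATC array 5 was the one ATC array within their range. Recurrent tumours rose by 2.02 ± 0.53 (SE, limma adjusted p = 0.00503), and PTC (1.83, adjusted p = 0.0624) and ATC (1.55, adjusted p = 0.0516) were not called. On JK arrays alone the recurrent difference was 0.59 and was not called (limma adjusted p = 0.403), nor was it with the kinds of title as a block (1.20, adjusted p = 0.198).

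The other slow genes did not pass the test. Myl2, the regulatory light chain of slow and ventricular muscle, was between 4.62 and 7.45 (median 5.95) in normal pools and at 6.95, 9.95, 8.99 and 9.60 in PTC (difference 2.78, limma adjusted p = 0.0952). Tnnt1, the slow tropomyosin-binding troponin, differed by 1.61 in PTC, 1.03 in ATC and 1.51 in recurrent tumours (limma adjusted p = 0.205, 0.313 and 0.0773). Myl3, the essential light chain of slow and ventricular muscle, and Casq2, a calcium store protein, differed by 1.53 and 1.02 in recurrent tumours and by at most 0.89 in PTC and ATC. Myl3 stood at 12.57 on recurrent array 5, where the next highest array, recurrent 4, was at 9.91.

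**Figure D2:**
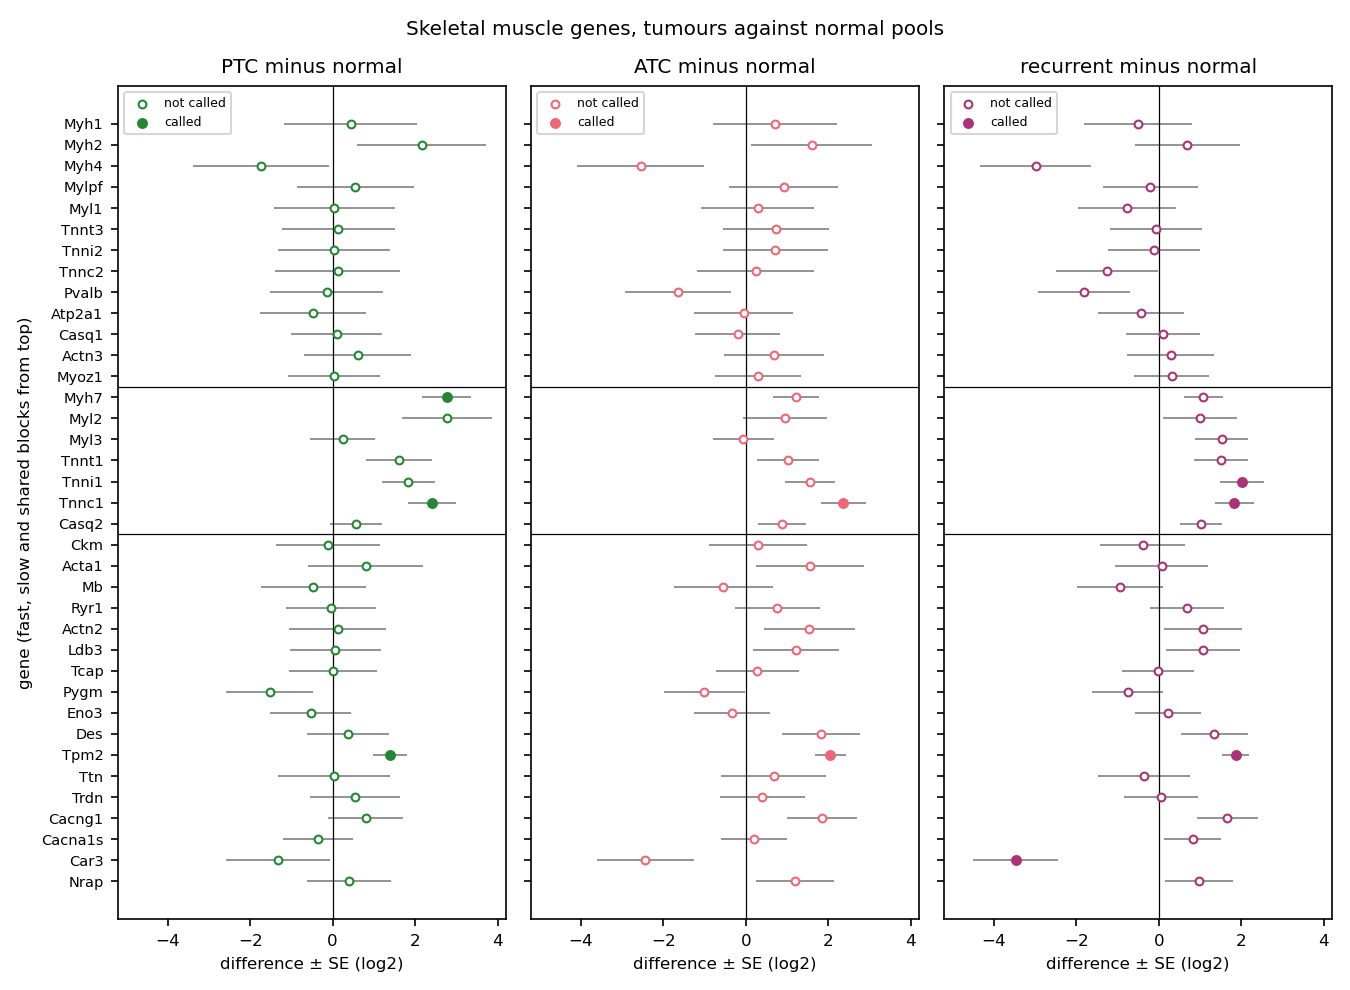
Difference of each of 37 muscle genes from the 6 normal pools in PTC (n = 4), ATC (n = 5) and recurrent tumours (n = 9), in log2 units with the SE from limma. Filled points passed the limma test (adjusted p below 0.05 over 12394 genes), namely Myh7, Tnnc1, Tpm2, Tnni1 and Car3 in at least 1 panel, and open points did not.

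Within the fast genes the myosin heavy chains did not keep step. Myh4 lay between 10.72 and 13.31 (median 11.74) in normal pools. It was at 11.11, 10.58, 10.71 and 7.96 in PTC, at 12.16, 11.48, 7.85, 9.46 and 5.44 in ATC, and between 4.25 and 14.52 (median 9.50) in recurrent tumours. Its mean was thus lower than in normal pools in every tumour group, with overlap in each. The differences of -1.74 ± 1.65 (SE) in PTC, -2.55 ± 1.55 in ATC and -2.98 ± 1.35 in recurrent tumours were not called (limma adjusted p = 0.585, 0.219 and 0.0925).

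Myh2 showed the opposite sign. It lay between 6.67 and 10.29 (median 8.02) in normal pools, at 9.68, 10.56, 11.29 and 10.27 in PTC and at 11.42, 9.03, 11.58, 11.95 and 5.48 in ATC. In recurrent tumours it ran from 4.83 to 13.78 (median 9.53). The means were higher than in normal pools by 2.15 ± 1.57 (SE), 1.60 ± 1.47 and 0.69 ± 1.28, and limma called none of them (adjusted p = 0.434, 0.437 and 0.717). Myh1, the type IIx heavy chain, differed by 0.44, 0.71 and -0.51, also not called. Its probe set may share probes with other transcripts, as its name says. A second Myh1 probe set gave 0.40, 0.71 and -0.70, and another stayed between 4.66 and 5.99 on all arrays.

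**Figure D3:**
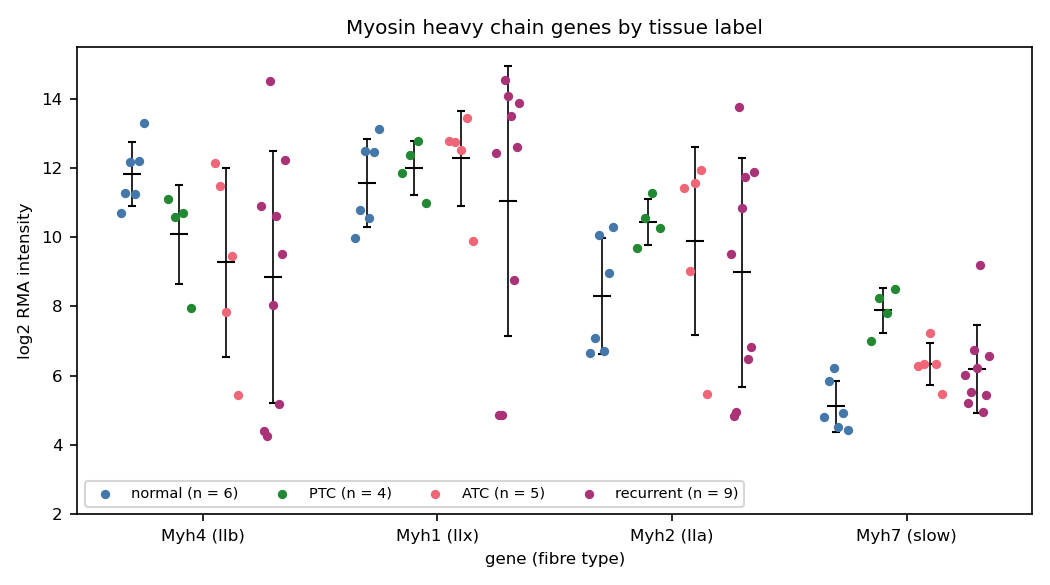
Log2 intensity of 4 myosin heavy chain genes on every array by tissue label, with the group mean and SD. Myh4 has its highest mean in normal pools and Myh2 and Myh7 have theirs in PTC, and each gene spreads most widely in recurrent tumours.

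None of the remaining fast genes passed the test (limma, 0 at an unadjusted p below 0.05 in the 3 comparisons with normal). Of all genes, 14.2%, 34.3% and 33.8% passed it in these comparisons. The light chains Mylpf and Myl1, the troponins Tnnt3, Tnni2 and Tnnc2, the calcium pump Atp2a1, the calcium store protein Casq1, the Z-disc proteins Actn3 and Myoz1 and the calcium buffer Pvalb differed from normal by -0.47 to 0.60 in PTC. In ATC the range was -1.65 (Pvalb) to 0.92 (Mylpf), and in recurrent tumours -1.81 (Pvalb) to 0.31 (Myoz1). Tnnc2, the fast partner of Tnnc1, lay between 10.96 and 13.76 (median 12.19) in normal pools. It was at 12.61, 12.55, 12.90 and 11.62 in PTC, at 13.47, 13.25, 12.54, 13.22 and 10.21 in ATC and between 5.50 and 14.63 (median 13.04) in recurrent tumours. The groups overlapped in this gene, and the 95% interval of its difference was -3.01 to 3.26 in PTC, which is wide enough to hold large differences in either direction.

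Of the thin filament genes shared by both fibre types, Tpm2 was called in all 3 comparisons with normal, as Tnnc1 was. Tpm2, a tropomyosin that covers the myosin sites on actin, lay between 8.99 and 11.03 (median 9.61) in normal pools. It was at 11.03, 10.97, 11.41 and 11.40 in PTC, at 11.87, 11.86, 11.69, 12.35 and 11.58 in ATC and between 10.63 and 13.21 (median 11.47) in recurrent tumours. ATC lay above every normal pool, and PTC and recurrent tumours overlapped only pool 6. The rises were 1.39 ± 0.41 (SE, limma adjusted p = 0.0235) in PTC, 2.06 ± 0.38 (limma adjusted p = 0.000234) in ATC and 1.86 ± 0.33 (limma adjusted p = 0.000161) in recurrent tumours. Unlike Acta1, at 6.50 and 6.40 on recurrent arrays 2 and 3, Tpm2 was at 11.47 and 11.82 there.

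The call of Tpm2 in PTC was not firm. It was lost without normal pool 1, 2 or 4 (limma adjusted p = 0.0589, 0.0525 and 0.0562) and when PTC array 3 or 4 was left out (0.0725 and 0.0706). The mean of its 4 probe sets differed by 0.82 (limma adjusted p = 0.428), and the 3 other probe sets differed by 1.21, 0.42 and 0.25 in PTC. Tropomyosins are also made by smooth muscle and fibroblasts. Of 11 smooth muscle genes, limma called 1 higher and 1 lower in PTC, 5 and 2 in ATC and 3 and 1 in recurrent tumours. The share of all genes called was 14.2%, 34.3% and 33.8%. The mean deviation of the smooth muscle genes was -0.48 to -0.04 in normal pools, -0.59 to -0.15 in PTC, 0.07 to 1.22 in ATC and -1.19 to 1.03 in recurrent tumours. Acta2 (1.97), Tagln (2.24) and Actg2 (3.48), contractile proteins of smooth muscle, rose in ATC, and Mylk, the kinase of the smooth muscle light chain, fell by 2.08. Their part in the Tpm2 result was not tested.

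Z-disc and scaffold genes had 0 of 8 members called by limma in each comparison with normal (0 at an unadjusted p below 0.05). Of all genes, 14.2%, 34.3% and 33.8% were called in PTC, ATC and recurrent tumours. Desmin (Des), the intermediate filament that ties Z-discs together, was between 8.03 and 9.95 (median 8.75) in normal pools and at 11.49, 11.42, 11.12, 11.06 and 8.28 in ATC. All ATC arrays except array 5 were thus above all pools, and the difference of 1.83 ± 0.93 (SE) was not called (limma adjusted p = 0.14). Actn2, Ldb3 and Nrap, which link actin and Z-disc, were higher in ATC by 1.54, 1.22 and 1.19, and Tcap and titin (Ttn) by 0.28 and 0.68, none called.

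Genes of calcium handling and excitation were not called either (limma, 0 of 8 in each comparison with normal, and 0, 1 and 1 at an unadjusted p below 0.05). The share of all genes called was again 14.2%, 34.3% and 33.8%. The one below 0.05 was Cacng1, a subunit of the muscle calcium channel, at 1.85 in ATC and 1.66 in recurrent tumours (limma adjusted p = 0.0986 and 0.0872). The channel's pore Cacna1s differed by 0.21 and 0.82, the release channel Ryr1 by 0.76 and 0.69 and its partner triadin (Trdn) by 0.40 and 0.04.

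Of 5 energy and oxygen genes, limma called 1 lower, in recurrent tumours, and 0, 1 and 1 had a higher mean than normal in the 3 comparisons. In recurrent tumours 19.3% of all genes were called lower. Car3, a carbonic anhydrase of slow fibres that fat cells also make in quantity, was counted among the shared genes, so the slow gene counts leave it out. Car3 lay between 13.61 and 14.52 (median 14.42) in normal pools. It was at 12.72, 13.05, 12.77 and 13.15 in PTC, at 11.79, 11.52, 11.75, 13.29 and 10.71 in ATC and between 5.08 and 14.25 (median 11.44) in recurrent tumours. All PTC and ATC arrays were below every pool, whereas recurrent array 4 was within their range. The difference was -1.32 ± 1.26 (SE) in PTC, -2.43 ± 1.18 in ATC and -3.47 ± 1.03 in recurrent tumours, and only the last was called (limma adjusted p = 0.589, 0.12 and 0.0119). Pygm, which breaks down glycogen, was also below every pool in PTC (-1.52, limma adjusted p = 0.403). Myoglobin (Mb), Eno3 and Ckm differed by -0.94 to 0.29 over the 3 comparisons and were not called.

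Fat cell genes were also lower in the tumours. Of 10 measured adipocyte genes, limma called 7 lower in PTC, 9 in ATC and 9 in recurrent tumours, where 8.03%, 19.1% and 19.3% of all genes were. The mean deviation of the adipocyte genes was 0.88 to 3.54 in normal pools, -0.30 to 0.63 in PTC, -1.10 to 0.04 in ATC and -0.98 to 1.72 in recurrent tumours. Normal pool 5, lowest of the pools in this mean at 0.88, also had the lowest Car3 level of the pools. Recurrent array 4, with Car3 at 14.25, and array 5, at 13.52, had adipocyte mean deviations of -0.28 and 0.68, so Car3 and the fat cell genes parted there. Adipoq, the adipocyte hormone adiponectin, was between 10.81 and 12.87 in normal pools and between 4.18 and 10.72 in recurrent tumours. The part of fat cells in the Car3 result was not tested.

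By arrays that do not overlap, 3 members lay wholly above the pools in PTC (Myh7, Tnnc1 and Tnni1) and 2 wholly below (Car3 and Pygm), where 14.6% and 19.7% of all genes did. In ATC 2 lay above (Tnnc1 and Tpm2) and 1 below (Car3), against 14.9% and 19.2%. In recurrent tumours 0 lay above and 0 below, against 2.90% and 5.12%.

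The fit above shares 1 spread per gene over all groups, and the spread was widest in recurrent tumours. A fit of PTC and normal arrays alone called 9 members higher and 3 lower, where 21.3% and 24.5% of all genes were called. The 9 were Tnnc1, Tnni1, Tnnt1, Myh7, Myl2 and Casq2 of the slow genes, Myh2 of the fast genes, and Tpm2 and Cacng1. The 3 were Myh4, Car3 and Pygm. A fit of ATC and normal arrays alone called 8 higher, 4 of them slow (Tnnc1, Tnni1, Myh7 and Casq2), and 1 lower (Car3), against 22.8% and 28.2%. Because the spread is shared, leaving out a recurrent array also changed the calls of ATC against normal: 4 members in place of 2 were called without recurrent array 2 (with Tnni1 and Car3 added), array 4 (Tnni1 and Cacng1) or array 6 (Tnni1 and Myh7). The share of all genes called was 34.3% with every array kept and was not counted without these arrays. Myh4 was thus the only fast gene called lower in these fits of a pair of groups, and Myh2 the only one called higher.

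The balance of fast and slow genes was described on each array by the mean deviation of the 13 fast genes minus that of the 7 slow genes. Normal pools were at -0.16, -0.09, 0.88, 0.65, 0.75 and 2.51, and PTC at 0.09, -0.85, -0.32 and -2.31. ATC was at 0.59, 0.09, -0.51, 0.67 and -2.05, and recurrent tumours ran from -4.05 to 1.47 (median -0.52). The lowest were recurrent arrays 2, 3 and 7, at -4.05, -3.61 and -2.65, where the mean deviation of the fast genes was -5.32, -5.04 and -3.43. The slow genes lay nearer background than the fast ones in normal pools, and levels near background are compressed. The part of this in the score was not tested. Normal pool 6, a Cre pool, had the highest value, 2.51, with the fast genes at 1.26 and the slow genes at -1.24. The other Cre pool, pool 5, was at 0.75. The groups overlapped, and no test was made of a score over chosen genes.

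**Figure D4:**
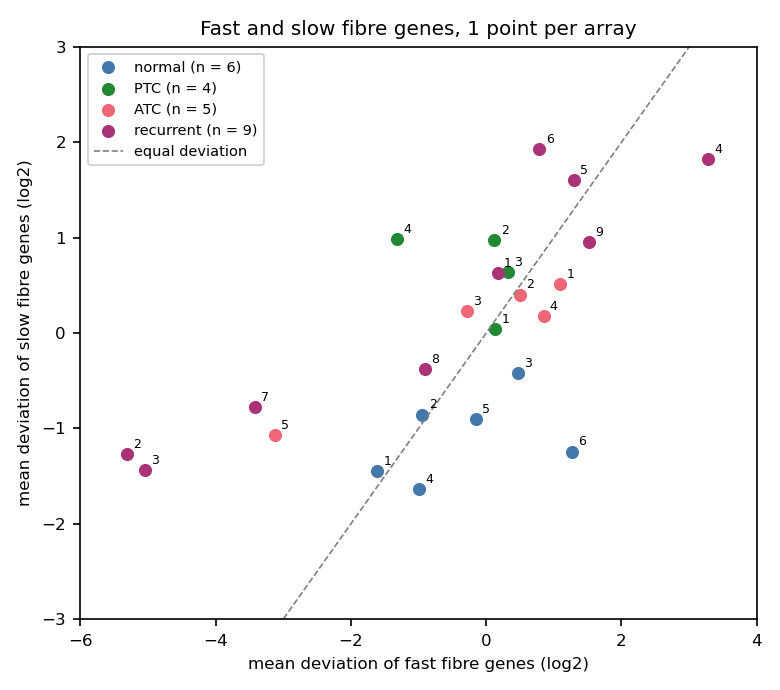
Mean deviation of 7 slow genes against that of 13 fast genes, in log2 units, with 1 point per array labelled by its replicate number. Normal pools lie low on the slow axis (-1.64 to -0.42) over a range of fast values, PTC lie at 0.04 to 0.99 on it, and recurrent arrays 2, 3 and 7 lie far to the left with ATC array 5.

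Differences between partner genes on the same array were examined in 9 pairs chosen after the values were seen, so they are given without a test. A difference between probe sets depends on how strongly each responds, and only its change between arrays is read. Tnnc1 minus Tnnc2 was between -7.95 and -5.26 in normal pools, between -5.11 and -3.05 in PTC and between -4.86 and -3.45 in ATC. These tumours thus lay above all pools on this measure. Recurrent tumours ran from -6.88 to 1.86 (median -4.63), with arrays 4, 5 and 8 within the range of the pools.

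Each myosin pair with Myh4 also shifted, and all of these pairs rest on the same Myh4 probe set. Myh1 minus Myh4 was -0.73 to 0.30 in normal pools, 0.75 to 3.02 in PTC, 0.62 to 4.68 in ATC and 0.01 to 6.07 in recurrent tumours. Only recurrent array 4, at 0.01, was within the range of the pools. Myh2 minus Myh4 was -4.55 to -2.12 in normal pools, -1.43 to 2.31 in PTC, -2.45 to 3.73 in ATC and -2.66 to 2.82 in recurrent tumours. Here ATC array 2, at -2.45, and recurrent array 8, at -2.66, were the only tumours within the range of the pools. Myh7 minus Myh4 was -8.89 to -5.46 in normal pools, -4.11 to 0.54 in PTC, -5.87 to 0.04 in ATC and -7.80 to 1.27 in recurrent tumours. On recurrent arrays 2 and 3 Myh1, Myh2, Myh7 and Myh4 were all at 5.52 or below. So were Myh2, Myh7 and Myh4 on ATC array 5, and Myh7 and Myh4 on recurrent array 7. Levels that low are compressed, so differences between these genes on these arrays are not read as shifts.

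The other 5 pairs overlapped between normal pools and each tumour group. Their mean differences from normal in PTC were 1.80 for Tnni1 minus Tnni2, 1.46 for Tnnt1 minus Tnnt3, 2.23 for Myl2 minus Mylpf, 0.20 for Myl3 minus Myl1 and 0.47 for Casq2 minus Casq1. In ATC they were 0.83, 0.29, 0.04, -0.35 and 1.08. On JK arrays alone, with 2 ATC arrays, the ATC differences became -0.69 for Tnni1 minus Tnni2 and -0.71 for Tnnt1 minus Tnnt3, and Myl3 minus Myl1 in PTC became -0.13, each with the sign turned. Myh7 minus Myh4 in ATC then exceeded the pools by 0.52 in place of 3.77, Myh2 minus Myh4 by 2.14 in place of 4.15, Myh1 minus Myh4 by 1.36 in place of 3.26 and Tnnc1 minus Tnnc2 by 1.23 in place of 2.12. In PTC these 4 pairs exceeded the JK pools by 3.82, 4.09, 2.33 and 1.81. The ATC means over all arrays include array 5, which is not a JK array and where Myh2, Myh7 and Myh4 were near background. Leaving out 1 array at a time, the ATC excess was 3.02 to 4.50 for Myh7 minus Myh4 and 3.37 to 4.91 for Myh2 minus Myh4. On recurrent array 2 the difference was 1.86 for Tnnc1 minus Tnnc2 and 0.80 for Myh7 minus Myh4. There Tnnc2, Myh7 and Myh4 were at 5.50 or below, while Tnnc1 was at 7.36, above every normal pool (5.53 to 6.06). Without recurrent arrays 2, 3 and 7, Tnnc1 minus Tnnc2 exceeded the pools by 1.37 in place of 3.10, Myh7 minus Myh4 by 2.44 in place of 4.06, Myh2 minus Myh4 by 3.34 in place of 3.67 and Myh1 minus Myh4 by 2.81 in place of 2.47. Myl2 minus Mylpf turned from 1.20 to -0.35.

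**Figure D5:**
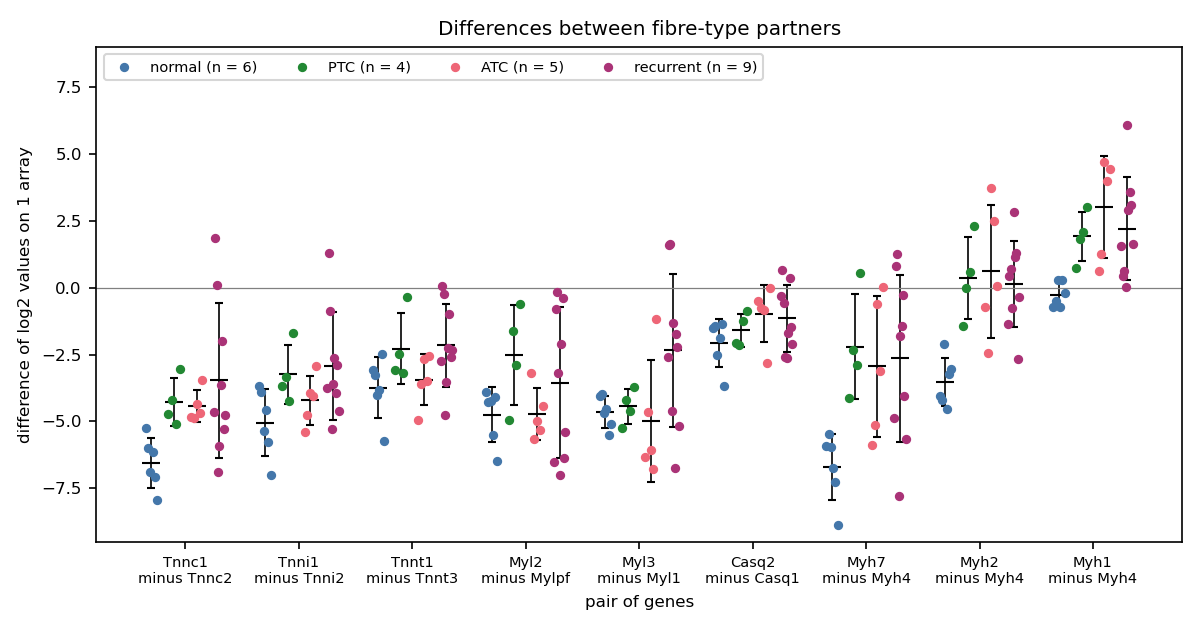
Difference of log2 values of 2 genes on the same array for 9 pairs, by tissue label, with the group mean and SD. Normal pools lie below most tumours in the pairs of Tnnc1 with Tnnc2 and of Myh7, Myh2 and Myh1 with Myh4.

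Among the tumour groups few members differed. ATC against PTC had 0 members called by limma (1 at an unadjusted p below 0.05), where 7.81% of all genes were called higher and 9.35% lower, together 17.2%. Tpm2 was higher on every ATC array than on every PTC array (0.67, limma adjusted p = 0.306). Recurrent tumours against ATC had 0 called (1 unadjusted), against 1.19% of all genes called higher and 3.12% lower, together 4.32%. Recurrent tumours against PTC had 1 called, Myh7, lower by -1.68 ± 0.55 (SE, limma adjusted p = 0.0308), where 9.71% of all genes were called higher and 12.1% lower, together 21.8%. That call was lost in a fit of the 2 groups alone (limma adjusted p = 0.108), when PTC array 2, 3 or 4 was left out (0.0990, 0.0694 and 0.108), when recurrent array 8 was (0.0501) and without recurrent arrays 2, 3 and 7 (-1.19, adjusted p = 0.104).

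Recurrent arrays 2, 3 and 7 decided most counts with recurrent tumours. Without them, limma called 22 members higher than normal pools and 1 lower (Car3), where 16.5% and 23.9% of all genes were called. The differences of the called genes were then 2.50 for Tnnc1, 2.94 for Tnni1, 2.05 for Tpm2 and -1.63 for Car3. The median difference from normal was 1.58 over the fast genes in place of -0.21, 2.33 over the slow genes in place of 1.51 and 1.72 over the shared genes in place of 0.24. Myh1 changed sign, from -0.51 to 1.94 (limma adjusted p = 0.0155), as did Tnnc2, to 1.12, which was not called. Myh2 stood at 2.48 in place of 0.69, Myh4 at -0.86 in place of -2.98 and Pvalb at -0.25 in place of -1.81, none of them called. Of the 22, 6 were slow, 5 fast (Myh1, Mylpf, Myoz1, Tnni2 and Tnnt3) and 11 shared. Against PTC 12 members were then higher and 0 lower (background 13.7% and 19.0%), and against ATC 3 were higher (Eno3, Myl3 and Tnni1, background 4.59%). The arrays were set aside because the muscle genes are low on them, which by itself raises the remaining level and narrows the shared spread. ATC array 5, also low in these genes, and recurrent array 4, the highest, were kept. The counts and p-values without recurrent arrays 2, 3 and 7 therefore only describe the remaining arrays. Leaving out only array 2, 3 or 7 gave 5, 6 and 6 members higher than normal, and leaving out array 4 gave 2 lower, Car3 and Myh4. Higher and lower together, 33.4%, 37.8%, 35.1% and 34.1% of all genes were called in these fits.

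Title kinds move with the groups as well, and the JK arrays leave out the Cre pools, normal pools 5 and 6. On JK arrays alone limma called 5 members higher in PTC (Tnnc1, Tnni1, Myh7, Myl2 and Tpm2) and 7 in ATC (Tnnc1, Tpm2, Actn2, Actn3, Cacng1, Des and Nrap). The background was 11.8% and 14.4%. Recurrent tumours, of which arrays 2 and 3 make up all but 1 of the JK arrays, then had 2 higher (Tnnc1 and Tpm2) and 7 lower (Car3, Mb, Myh4, Myl1, Pvalb, Pygm and Tnnc2), against 19.4% and 22.2%. Bare-number titles hold no normal pool, so within them no comparison with normal could be made.

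The mean of other skeletal muscle genes followed the same arrays. Of 31 measured outside the 37, limma called 0 in PTC (2 at an unadjusted p below 0.05), 4 higher and 2 lower in ATC, and 6 higher and 1 lower in recurrent tumours. These shares lie below the 14.2%, 34.3% and 33.8% of all genes called. The mean deviation of the 31 was 2.90 on recurrent array 4 and -1.97, -1.67 and -1.99 on arrays 2, 3 and 7. Single genes went both ways, from -2.32 to 2.97 in ATC and from -2.55 to 2.32 in recurrent tumours. Genes called higher in both are named here, and not all of them were low on recurrent arrays 2, 3 and 7. Fbxo32, a ubiquitin ligase of muscle wasting, rose by 2.05 in ATC and 2.32 in recurrent tumours (limma adjusted p = 0.00292 and 0.000277). It was at 6.25 to 7.65 in normal pools, 7.07 to 7.20 in PTC, 7.86 to 10.74 in ATC and 7.68 to 10.77 in recurrent tumours, all ATC and recurrent arrays lying above the pools. Chrna1, the acetylcholine receptor subunit at the nerve contact, rose by 1.71 and 1.97 (limma adjusted p = 0.0223 and 0.00347), and Ankrd2, a stretch-responsive protein, by 2.71 and 1.88 (limma adjusted p = 0.0115 and 0.0416). Chrna1 was highest, at 10.20, on recurrent array 2, where the contractile genes were low.

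Genes of developing and regenerating muscle were low on most arrays. Of 15 measured, limma called 0 in PTC (2 unadjusted), 2 higher and 1 lower in ATC and 3 higher and 0 lower in recurrent tumours. Here too the shares lie below those of all genes (14.2%, 34.3% and 33.8%). Myl4, the embryonic light chain, rose by 2.17 in ATC and 2.04 in recurrent tumours (limma adjusted p = 0.0139 and 0.00857). Myog, a factor of muscle differentiation, rose by 1.72 and 1.32 (limma adjusted p = 0.0178 and 0.0359), and Actc1, the cardiac and fetal actin, fell by 2.79 in ATC (limma adjusted p = 0.0249). The developmental myosins were high on single recurrent arrays: Myh3 was at 11.99 on array 6, and Myh8 at 13.68 on array 5 and 12.03 on array 4. In normal pools they were at 4.54 to 5.13 and 5.27 to 7.22.

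Some slow genes are also heart genes, so heart markers were read beside them. Limma called 2 of 10 higher in PTC, 3 in ATC, and 2 higher and 1 lower in recurrent tumours. The share of all genes called was 14.2%, 34.3% and 33.8%. Myl4 is on this list as well as among the genes of developing muscle above, so its calls in ATC and recurrent tumours are counted in both. Tnnt2, the cardiac and embryonic troponin T, was at 4.29 to 4.73 in normal pools, 7.21 to 7.78 in PTC, 10.91 to 12.04 in ATC and 5.69 to 10.03 in recurrent tumours. It rose by 2.99, 6.90 and 3.60 in turn (limma adjusted p = 0.000582, 2.03e-09 and 2.03e-06). Nppb, a natriuretic peptide, rose by 4.16 in ATC (limma adjusted p = 0.0103). The atrial and ventricular myosin Myh6 was at 3.49 to 4.40 on all arrays but recurrent 3, at 6.23.

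Other neighbouring tissues differed between the same recurrent arrays. Cartilage genes had mean deviations of 4.50 on recurrent array 7 and 3.13 on array 5, and at most 0.94 on every other array. Pth, parathyroid hormone, was at 14.76 on recurrent array 4 and 14.58 on array 5, as in normal pools (14.42 to 14.78), and at 3.86 to 4.91 on arrays 2, 3, 6, 7 and 8. Their part in the muscle results was not tested.

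Outside the 37, the genes whose deviations ran closest to the mean of the members over the 24 arrays were Myom1, an M-band protein (mean absolute distance 0.35 log2 units), Pgam2, the muscle phosphoglycerate mutase (0.38), and Cmya5 (0.42). Tmod4, Art1, Cox6a2, Cap2, Ndrg2, Fhl1 and Eef1a2 followed, up to 0.56. All but Tmod4 and Fhl1 had both their highest array at recurrent 4 and their lowest at recurrent 2 or 7. Among the members, Myoz1 (0.32) and Trdn (0.34) were closest to the mean, and Myh4 (1.56), Car3 (1.44), Myl2 (1.29) and Myh7 (1.28) were farthest.

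Of the 37 members, 26 had 1 probe set and 11 had several. Second probe sets of Des and Mb stayed between 4.28 and 6.63 and between 4.33 and 5.37 on all arrays, below the lowest values of the ones used for Des (6.89) and Mb (5.88). The second probe set of Car3 differed from normal by -2.18, -3.07 and -2.84 in PTC, ATC and recurrent tumours, the last 2 called when every probe set was tested (limma adjusted p = 0.009 and 0.006). Both further probe sets of Myl3 gave the sign of the one used in all 3 comparisons.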

How the data were processed

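RNA from 24 thyroid samples was measured on Affymetrix Mouse430A_2 arrays. The deposited values are log2 intensities per probe set. The submitters' processing notes name Partek and RMA, with versions not given in the sources used here. RMA summarises and quantile-normalises probes, which makes arrays alike in overall distribution and compresses values near background. No further normalisation was applied.

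Of 22690 probe sets, 20393 named a single gene, 691 more than 1, and 1606 had no name. Gene IDs gave a current RefSeq (GRCm38.p6) symbol for 20364 of them. The probe set with the highest mean stood for each of 12394 genes. Arrays were grouped by tissue label. limma 3.58.1 in R 4.3.3 fitted 4 group means with moderated variances, and p-values were Benjamini-Hochberg adjusted over all 12394 genes. The fit was tested on simulated data. Deviations are from each gene's median over 24 arrays. For arrays, their number limits the precision.

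Every member with a probe set was described. The members, gene lists and pairs were chosen with earlier results of these data known. The alternatives were fits of the groups compared alone, blocks by title kind, JK arrays only, other summaries of probe sets, array weights and leaving out arrays. Leaving out recurrent arrays 2, 3 and 7 was added after seeing the data.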

Additional observations from a re-analysis of the deposited data

Results flagged for a closer look

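Single arrays stood apart within their group in 11 of 192 groups of values examined, a share near the 1 in 20 or so that chance flags. The groups covered genes, partner differences and scores, and only genes were flagged. On ATC array 5, 9 members were far below the other 4 ATC arrays. Most members follow the same order of arrays, so these are not 9 separate events. Acta1 was at 10.84 (others 13.48 to 13.90), Myh1 at 9.89 (12.53 to 13.45), Mylpf at 9.21 (12.18 to 12.70) and Myl1 at 9.06 (12.46 to 13.22). Tnnc2 was at 10.21 (12.54 to 13.47) and Des at 8.28 (11.06 to 11.49). The slow troponins Tnnt1, Tnni1 and Tnnc1 were at 6.06 (7.97 to 8.60), 6.39 (7.66 to 8.01) and 6.76 (8.21 to 8.64). On PTC array 4 Myh4 was at 7.96, below the other 3 (10.58 to 11.11). On recurrent array 6 Myh7 was at 9.19, above the other 8 (4.94 to 6.73).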

How the results depend on the processing

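No paired analysis was possible because the replicate numbers follow only the order of the samples and no label pairs them. No member that limma called in the fit to all arrays reversed its sign in that comparison under an alternative. Members called only under an alternative could: Mb, Myl1 and Tnnc2 were called lower in recurrent tumours than in normal pools on JK arrays. Without recurrent arrays 2, 3 and 7 they were higher by 1.05, 1.45 and 1.12, not called. The JK setting keeps the low arrays 2 and 3 among its 3 recurrent arrays, and the other leaves them out for being low. That turn of sign therefore only describes which arrays were kept. In fits of the 2 groups alone, the members called by limma were 9 higher and 3 lower in PTC, 8 higher and 1 lower in ATC, 1 higher and 1 lower in ATC against PTC, and 0 lower in recurrent tumours against PTC. The shares of all genes called were 45.8%, 51.0%, 37.0% and 10.9%. With the kind of title as a block, 1 was lower in ATC, 1 higher in recurrent tumours and 2 lower in recurrent tumours against PTC. That block called 32.4%, 30.5% and 18.8% of all genes in these comparisons. On JK arrays, 5 were higher in PTC, 7 higher in ATC and 7 lower in recurrent tumours, each against normal, 1 higher in ATC against PTC, 2 lower in recurrent tumours against ATC and 11 lower against PTC, where 15.8%, 7.53% and 31.3% of all genes were called in the last 3 comparisons. The mean of probe sets, and every probe set on its own, gave 1 lower in ATC, where 34.4% of genes and 32.2% of probe sets were called. Array weights gave 7 higher and 2 lower in PTC, 6 and 4 in ATC and 9 higher in recurrent tumours, and 4 lower in ATC against PTC, 1 higher in recurrent tumours against ATC, and 3 higher and 2 lower against PTC. That setting called 51.4%, 59.4% and 50.4% of all genes against normal, so its 9, 10 and 10 members of 37 are a smaller share than among all genes. Among the tumour groups it called 51.0%, 11.0% and 45.0% of all genes, in the order given. Without recurrent arrays 2, 3 and 7, 22, 3 and 12 were higher in recurrent tumours than in normal, ATC and PTC, and 0 lower than in PTC. The causes were not tested.

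Leaving out 1 array at a time gave 3 to 6 members higher and 1 to 2 lower in recurrent tumours than in normal pools, and 0 to 1 lower than in PTC. Those fits called 28.9% to 39.1% of all genes against normal and 14.2% to 27.4% against PTC. Leaving out an array of the groups compared gave 2 to 3 higher in PTC and 2 to 3 in ATC than in normal pools. The share of all genes called then ran from 9.54% to 14.3% in PTC and from 28.9% to 33.1% in ATC. Leaving out recurrent array 2, 4 or 6 gave 4 members called in ATC in place of 2, and the share of all genes was not counted there. The number of arrays and the wide spread of the recurrent tumours limit these counts, and levels near background are compressed.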
